A study of Mus musculus with 42 samples.

Results

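The genes described here encode the amyloid precursor protein, the proteases that cut it, tau and 2 lipid carriers, all of them tied to Alzheimer disease. They were given as a list of 9 mouse genes (App, Bace1, Psen2, Ncstn, Aph1a, Adam10, Mapt, Apoe and Clu), and all 9 were found by symbol among the 54232 genes of the raw count table. Their levels were compared over 42 mouse brain libraries, 22 labelled hippocampus and 20 labelled cerebellum, in 4 groups per region label. Under the hippocampus label there were 6 libraries of western diet with NaKtide, 5 of western diet, 5 of control diet with NaKtide and 6 of control diet. Under the cerebellum label each of the same groups held 5 libraries. Mice ate the western diet (42% fat) or the control chow (11% fat) for 12 weeks. NaKtide is a peptide from the Na,K-ATPase that blocks signalling from this sodium pump to the kinase Src. Here it came from a transgene that was switched on by doxycycline in the chow at 300 mg/kg, so the NaKtide groups carried the transgene and received doxycycline. The labels name neither the promoter of the transgene nor strain, age or sex, and do not say whether the other mice carried the transgene or received doxycycline. The peptide, the transgene and doxycycline can therefore not be told apart. An effect of NaKtide below means the difference between groups with and without the NaKtide label. The title of the series names adipocytes. The labels also do not say that each library is a separate animal, so p-values reflect the spread among these libraries alone, which may be technical.

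Amyloid precursor protein is cut in neurons along competing routes. Cleavage by the alpha-secretase ADAM10 destroys the amyloid-beta stretch, whereas cleavage by the beta-secretase BACE1 followed by gamma-secretase releases amyloid-beta. Gamma-secretase is a membrane complex whose subunits include PSEN2, nicastrin, APH1 and PEN-2, and apolipoprotein E, made in brain mainly by astrocytes and microglia, binds amyloid-beta and affects its clearance.

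Each library held between 4669374 and 9521002 counts and between 14665 and 16345 genes with at least 10 counts. The lowest count of any of the 9 genes in any library was 60, for Adam10, so none was lost to a filter on low counts. The region labels fitted the markers of the tissue only in part. Gabra6, a defining gene of cerebellar granule cells, was under 1 CPM (counts scaled to a common library total) in 15 of the 20 libraries labelled cerebellum and reached at least 10 CPM in 3 of them. In 21 of the 22 libraries labelled hippocampus it was under 1 CPM, and in 1 it was 23.6 CPM. The labels are therefore used here as names of groups. Xist, a transcript of female cells, had 1547 counts in hippocampus western NaKtide 6, 276 in cerebellum western NaKtide 5, and 87 and 69 in hippocampus control 5 and 6, and 0 to 5 counts in the other libraries. Hippocampus control 5 and 6 were also closer to each other than any other pair compared within a group, although they differed by more than counting noise (mean chi-square per gene 2.45). Several results below are given also without these 4 libraries. In bulk tissue, fewer cells of a type and less RNA per cell cannot be told apart.

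The level per unit of gene length, as deposited FPKM averaged over the 42 libraries, put the lipid carriers at the top of the list. Apoe averaged 940 ± 261 FPKM (SD, n = 42) and Clu, which encodes clusterin, a secreted chaperone and lipid carrier, 267 ± 50.8 FPKM. App followed at 82.4 ± 18.7 FPKM and Mapt, the gene of the axonal microtubule protein tau, at 58.4 ± 6.41 FPKM. The proteases were lower. The gamma-secretase subunits Aph1a and Ncstn stood at 16 ± 2.34 and 11.8 ± 1.21 FPKM, Bace1 at 8.53 ± 2.19, Adam10 at 6.72 ± 3.01 and Psen2, another subunit of that complex, at 4.76 ± 1.32 FPKM. The genes also differed in how far their levels spread. Within 1 gene, levels are compared below in CPM with TMM scaling, whose largest value over its smallest was 5.74 for Adam10 and between 1.6 and 2.96 for the other members. Relative to the mean over the 42 libraries, the SD was 44.3% for Adam10, 27.5% for Psen2, 27.4% for Apoe, 25.3% for Bace1 and 22.5% for App. Clu, Aph1a, Mapt and Ncstn were steadier, at 18.9%, 14.7%, 10.8% and 10.1%.

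**Figure D1:**
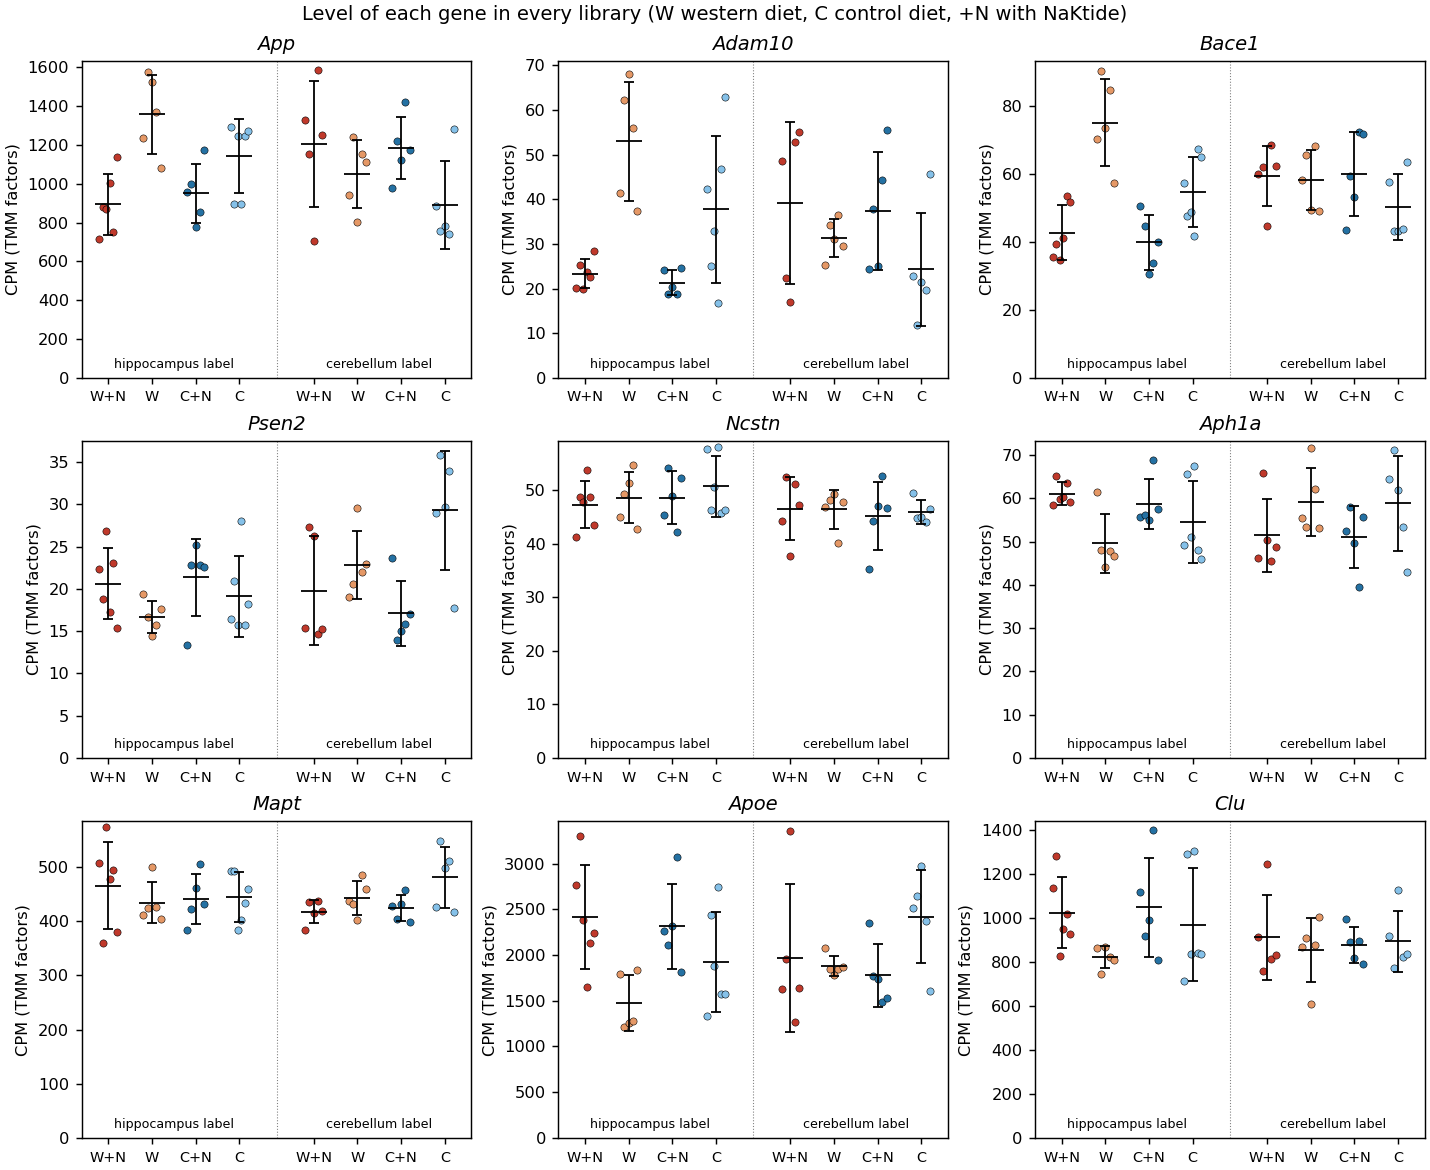
Level of each of the 9 genes in every library, in CPM with TMM factors on linear axes from 0; W is western diet, C control diet and +N with NaKtide, the horizontal bar is the group mean and the whiskers are 1 SD. In libraries labelled hippocampus, Adam10 and Bace1 show no overlap between western diet with NaKtide (at most 28.5 and 53.5 CPM) and western diet (at least 37.3 and 57.2 CPM). The share of all genes without overlap was not counted, and 33.7% of all genes were called in that comparison.

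When the 8 groups were ordered by mean for each gene, 1 of the 63 gaps between neighbours was larger than the SD of both neighbouring groups. That gap belonged to Bace1, whose mean in hippocampus western libraries, 75.1 ± 12.9 CPM (n = 5), was 15.2 CPM above the next group. App ran from 1357 ± 204 CPM in hippocampus western to 889 ± 226 CPM in cerebellum control, in groups of 5. The lowest mean of Adam10 was 21.3 ± 2.84 CPM, in hippocampus control NaKtide (n = 5), and its highest was 53 ± 13.3 CPM, in hippocampus western. Apoe was ordered the other way round, with its lowest mean, 1475 ± 310 CPM, in hippocampus western and its highest, 2421 ± 508 CPM, in cerebellum control. For Psen2 the range was 16.7 ± 1.9 CPM in hippocampus western to 29.3 ± 7.03 CPM in cerebellum control. The means of Ncstn stayed between 45.1 and 50.7 CPM, those of Aph1a between 49.6 and 61.1 CPM, those of Mapt between 418 and 481 CPM and those of Clu between 822 and 1048 CPM.

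App and the proteases Adam10 and Bace1 varied together from library to library, and Apoe varied against them. Over the 42 libraries the Pearson correlation of log2(CPM + 1) was 0.85 between App and Adam10, 0.78 between App and Bace1 and 0.82 between Adam10 and Bace1. Apoe had correlations of -0.86 with App, -0.85 with Adam10 and -0.77 with Bace1, and 0.70 with Clu. The pair of Apoe and App had -0.85 within the 22 libraries labelled hippocampus, -0.88 within the 20 labelled cerebellum and -0.79 after the group means were removed. These values describe the libraries, which share groups and, within a library, depth and tissue content, and no test was made on them. The trend of each library with gene length, given below, was not taken out of these correlations, and its part in them was not tested. Among 9719 genes of at least 10 CPM on average, the closest in pattern to App were Lnpk and Atrn (both 0.94), to Adam10 Lemd3 (0.95) and Cpsf6 (0.94), and to Bace1 Pafah1b1 and Usp22 (both 0.91). Apoe was closest to S100a1 and S100a13 (both 0.95), Psen2 to Pnpla2 (0.87) and Cndp2 (0.84), Aph1a to Lmf2 (0.81) and Ctdsp1 (0.79) and Clu to Cst3 (0.80) and Eef1a1 (0.76). For the steadiest genes the best matches were looser, with Slc7a8 (0.63) and Ubap2l (0.62) for Ncstn and Vwa5b2 (0.68) and Ccdc157 (0.67) for Mapt.

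**Figure D2:**
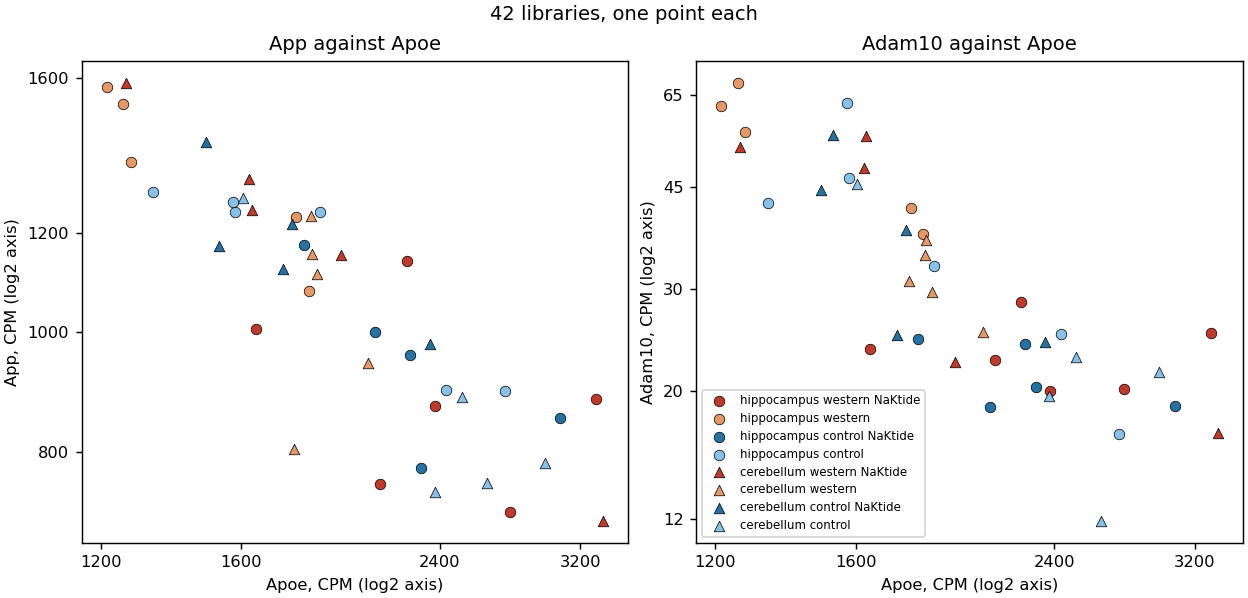
App (left) and Adam10 (right) against Apoe in CPM on log2 axes, with 1 point for each of the 42 libraries, circles for the hippocampus label and triangles for the cerebellum label, coloured by group. Libraries high in Apoe are low in App and Adam10 (correlations -0.86 and -0.85), and the points of both region labels lie along the same diagonal.

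The promoter windows of App and Adam10, which varied together, and of Apoe, which varied against them, are printed below from RefSeq (GRCm38.p6). Each runs from 250 bases before to 50 bases after the most upstream start listed there for the gene. RefSeq promoters were matched for 6 of the 9 genes. The App window is chr16:85173658-85173957 on the minus strand, the Adam10 window chr9:70678732-70679031 on the plus strand and the Apoe window chr7:19699139-19699438 on the minus strand, each written 5′ to 3′ on the strand of the gene. Capitals mark the GC box, searched as GGGCGG on both strands (CCGCCC on the other).
App: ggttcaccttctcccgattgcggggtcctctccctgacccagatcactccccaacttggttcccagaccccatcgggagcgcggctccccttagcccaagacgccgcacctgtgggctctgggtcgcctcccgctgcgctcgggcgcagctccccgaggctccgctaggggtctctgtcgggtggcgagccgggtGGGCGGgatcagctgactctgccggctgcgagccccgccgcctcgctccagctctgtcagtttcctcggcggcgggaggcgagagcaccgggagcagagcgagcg
Adam10: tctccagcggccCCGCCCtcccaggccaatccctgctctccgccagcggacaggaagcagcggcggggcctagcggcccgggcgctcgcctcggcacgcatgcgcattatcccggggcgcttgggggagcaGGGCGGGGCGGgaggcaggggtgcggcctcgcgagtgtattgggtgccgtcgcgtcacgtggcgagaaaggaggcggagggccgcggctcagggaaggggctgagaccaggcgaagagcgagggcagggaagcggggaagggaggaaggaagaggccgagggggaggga
Apoe: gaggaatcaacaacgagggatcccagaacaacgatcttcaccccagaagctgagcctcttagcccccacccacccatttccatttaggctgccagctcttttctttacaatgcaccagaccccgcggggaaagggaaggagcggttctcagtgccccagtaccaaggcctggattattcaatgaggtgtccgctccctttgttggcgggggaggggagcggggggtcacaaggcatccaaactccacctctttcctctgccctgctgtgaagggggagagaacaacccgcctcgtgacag
The GC box was found once in the App window, 3 times in the Adam10 window, where 2 of the matches overlap, and not at all in the Apoe window. It occurs in 35.7% of 32851 promoter windows of this length. GC content was 71% in the App window, 73.3% in the Adam10 window and 57.7% in the Apoe window, with 30, 32 and 10 CpG dinucleotides. Among the other windows matched, Psen2 held 4 GC boxes, Aph1a 1 and Ncstn 0. The Psen2 window, chr1:180256251-180256550 on the minus strand, lies inside the gene as GENCODE places it (chr1:180227004-180263438). The letters TATAAA, searched on both strands and present in 13.6% of all windows, were in none of the 6.

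Within a region label, members were called by edgeR for NaKtide on western diet in hippocampus-labelled libraries, a comparison of groups with and without NaKtide on the fat-rich diet. App and both proteases that make the competing cut, Adam10 and Bace1, were lower with NaKtide, Apoe was higher, and Psen2, Ncstn, Aph1a, Mapt and Clu did not pass the test. Of the 9 genes, 1 was called higher and 3 lower by the quasi-likelihood test of edgeR at an adjusted p under 0.05. In the same comparison 33.7% of the 16442 genes tested were called, 17.4% higher and 16.3% lower, with a median log2 fold change of 0.05 over all genes and 0.08 over the 9. A count of 4 in 9 stands near that background and is no result about these genes by itself. DESeq2 called 5 of the 9, beside 36.8% of genes.

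App, the precursor itself, lies at chr16:84949685-85173766 on the minus strand (ENSMUSG00000022892; positions of genes are those of GENCODE on GRCm38). In western diet with NaKtide it ran from 715 over a median of 877 to 1140 CPM in 6 libraries, against 1237, 1575, 1524, 1371 and 1079 CPM in western diet. The ranges overlapped through 1 NaKtide library, and the other 5 lay below every western diet library. The means were 894 ± 158 CPM with NaKtide and 1357 ± 204 CPM without it (SD, n = 6 and 5), 1.54-fold lower with NaKtide (log2 fold change -0.62, SE 0.15, edgeR adjusted p = 0.00606).

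Adam10 (chr9:70678997-70780229, plus strand, ENSMUSG00000054693), the main alpha-secretase of neurons, changed most. Its lowest, median and highest values were 20, 23.1 and 28.5 CPM in western diet with NaKtide, against 41.4, 62.2, 68.1, 56 and 37.3 CPM in western diet. The groups did not overlap, but the share of all genes without overlap was not counted. The means were 23.3 ± 3.23 CPM with NaKtide and 53 ± 13.3 CPM without it (n = 6 and 5), 2.3-fold lower with NaKtide (log2 fold change -1.20, SE 0.24, edgeR adjusted p = 0.00255).

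Bace1 (chr9:45838580-45864399, plus strand, ENSMUSG00000032086), the beta-secretase that makes the amyloid-forming cut, ran from 34.8 over a median of 40.3 to 53.5 CPM in western diet with NaKtide. In western diet it had 70.2, 90.2, 73.5, 84.8 and 57.2 CPM. These groups did not overlap either, with the same limit. The means were 42.7 ± 8.05 CPM with NaKtide and 75.1 ± 12.9 CPM without it (n = 6 and 5), 1.78-fold lower with NaKtide (log2 fold change -0.83, SE 0.16, edgeR adjusted p = 0.00244).

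Apoe (chr7:19696109-19699188, minus strand, ENSMUSG00000002985) went the opposite way. It ran from 1648 over a median of 2312 to 3306 CPM in western diet with NaKtide, against 1790, 1215, 1257, 1276 and 1836 CPM in western diet. All but 1 of the 6 NaKtide libraries lay above every western diet library. The means were 2412 ± 569 CPM with NaKtide and 1475 ± 310 CPM without it (n = 6 and 5), 1.63-fold higher with NaKtide (log2 fold change 0.71, SE 0.21, edgeR adjusted p = 0.0144).

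The subunits of gamma-secretase on the list did not pass. Aph1a (chr3:95893969-95898288, plus strand), a scaffold subunit of the complex, ran from 58.5 over a median of 60 to 65.1 CPM in western diet with NaKtide, against 61.5, 48, 44.1, 47.7 and 46.7 CPM in western diet. A single western diet library, the first, reached into the range of the NaKtide libraries. Its log2 fold change was 0.29 (SE 0.12) with an edgeR adjusted p of 0.0632, which fell under the threshold without hippocampus western 1 (0.36, 0.0296), without hippocampus control 4 (0.29, 0.0443) and in DESeq2 (0.0389). Psen2 (chr1:180227004-180263438, minus strand), which encodes a form of the catalytic subunit, averaged 20.6 ± 4.21 CPM with NaKtide and 16.7 ± 1.9 CPM without it (0.28, SE 0.18, adjusted p = 0.228). Ncstn (chr1:172066013-172082795, minus strand), the subunit that receives the substrate, averaged 47.3 ± 4.42 CPM with NaKtide and 48.6 ± 4.81 CPM without it (-0.06, SE 0.11, adjusted p = 0.71). Psenen and Aph1b, further genes of the complex outside the list of 9, are given with the pathway.

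Mapt and Clu did not pass either. Mapt (chr11:104231390-104332090, plus strand) averaged 466 ± 81.1 CPM with NaKtide and 434 ± 37.9 CPM without it, or 0.08 on the log2 scale (SE 0.12, edgeR adjusted p = 0.609). Clu (chr14:65968483-65981547, plus strand) averaged 1024 ± 163 CPM with NaKtide and 822 ± 49.1 CPM without it (0.31, SE 0.17, adjusted p = 0.175).

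Fold changes in this comparison moved with the length of the gene. The median log2 fold change over all genes tested was 0.48 in the quartile of shortest exon length, 0.14 and -0.08 in the middle quartiles and -0.28 in the quartile of longest genes. App, Bace1 and Mapt lie in the longest quartile, Psen2, Ncstn and Adam10 in the next, and Aph1a, Apoe and Clu in the second shortest. With the trend of each library with exon length taken out, Adam10 had -1.08 (adjusted p = 0.0042), Bace1 -0.61 (0.00727) and Apoe 0.54 (0.0229) in edgeR, so these 3 calls were made there too. App had -0.20 and was no longer called (0.238), while Mapt had 0.35 and was called (0.0321), which turned the split of the 9 genes into 2 higher and 2 lower. In that setting 27.9% of all genes were called, 15.2% higher and 12.7% lower. Without the 4 libraries marked by Xist the changes were -0.71 for App, -1.27 for Adam10, -0.90 for Bace1 and 0.71 for Apoe, with adjusted p of 0.0037, 0.000933, 0.00126 and 0.0193. A trend with length was not particular to this comparison. From the shortest to the longest quartile, the median ran from -0.33 to 0.21 for western diet without NaKtide in the hippocampus label. In the cerebellum label it ran from -0.34 to 0.24 for NaKtide on control diet, and from 0.08 to -0.04 for NaKtide on western diet.

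**Figure D3:**
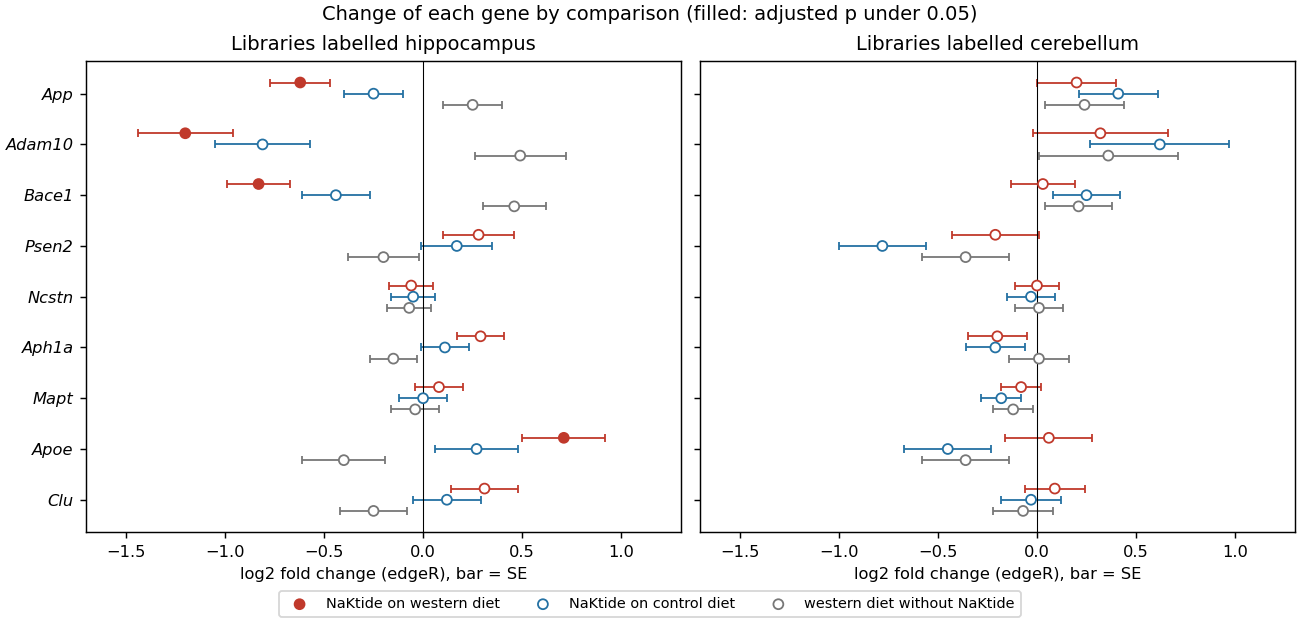
Log2 fold change of each gene from edgeR, with bars of 1 SE, for NaKtide on western diet, NaKtide on control diet and western diet without NaKtide, in libraries labelled hippocampus (left) and cerebellum (right); filled points have an adjusted p under 0.05. The 4 filled points are App, Adam10, Bace1 and Apoe under NaKtide on western diet in the hippocampus label, at -0.62, -1.20, -0.83 and 0.71.

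Markers of cell types and regions were called in the same comparison, where 33.7% of all genes were. Of 6 astrocyte markers 4 were lower with NaKtide, with summed levels of 1500 to 2442 CPM against 1862 to 3676 CPM in western diet. Of 6 neuronal markers 2 were lower (3004 to 4752 against 4477 to 5363 CPM). Of 6 microglial markers 2 were higher (227 to 347 against 181 to 340 CPM), as was 1 of 6 oligodendrocyte markers, whose sum ran from 2060 to 21026 CPM with NaKtide and from 3195 to 9329 CPM without it. Markers of regions and of blood were called as well. Of 5 markers of dentate granule cells 4 were lower (41.2 to 151 against 93.8 to 463 CPM), of 6 striatal markers 3 were higher (170 to 3325 against 103 to 342 CPM) and of 5 haemoglobin and red cell genes 4 were higher (737 to 3462 against 240 to 1245 CPM). The 3 cerebellar markers of 6 that passed the filter were lower. The sum of all 6 ran from 2.68 to 8.75 CPM with NaKtide, against 11.3 to 363 CPM in western diet. The highest value there was hippocampus western 4, and the median of that group was 14.3 CPM. Among the 5 markers of hippocampal pyramidal cells 1 was lower (134 to 2051 against 606 to 1470 CPM), and 1 of 4 hypothalamic markers was higher (0.979 to 157 against 0.122 to 28.3 CPM). No marker of endothelial cells, thalamus, choroid plexus or pituitary was called. Among the 4 pituitary markers only Gh and Pomc passed the filter and were tested. The part of tissue content in the changes of App, Adam10, Bace1 and Apoe was not tested.

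The wider pathway, 57 further genes of amyloid and tau biology and Alzheimer risk, was all found and tested. In the same comparison 7 of the 57 were higher, 17 lower and 33 not called, with a median log2 fold change of -0.15, beside 17.4% higher, 16.3% lower and a median of 0.05 over all genes. With the length trend taken out, 10 were higher and 10 lower, beside 15.2% and 12.7% of all genes. Leaving out the 4 libraries marked by Xist gave 7 higher and 14 lower, where 5591 of 16535 genes were called in either direction. In the APP family 1 of 2 was called, Aplp2, an APP homologue, at 411 ± 41.4 CPM with NaKtide and 495 ± 19.2 CPM without it (log2 fold change -0.28, edgeR adjusted p = 0.0287; -0.10 and 0.415 with the length trend out). Of 6 other secretase genes 1 was higher and 2 lower. Psenen, which encodes PEN-2, the smallest subunit of gamma-secretase, rose to 67.1 ± 10.1 CPM with NaKtide, against 37.1 ± 9.56 CPM in western diet (0.85, adjusted p = 0.00491). Aph1b averaged 13.2 ± 4.03 CPM with NaKtide and 23.1 ± 4.75 CPM without it (-0.81, adjusted p = 0.00619), but Aph1c is its close paralog, the counting could split their reads, and its value is uncertain. Adam9, a further metalloprotease, had -0.80 (adjusted p = 0.00928). With the length trend out, Psenen had 0.57, Aph1b -0.67 and Adam9 -0.75, all still called (edgeR adjusted p = 0.00724, 0.015 and 0.0143). Beside the rise of Psenen, its partner subunits Psen2, Ncstn and Aph1a were not called.

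Of 11 adaptors and modulators of APP 6 were lower and none higher, where 16.3% of all genes, and 32% of those in the quartile of longest exon length, were lower. The count of lower adaptors was 4 without the 4 libraries marked by Xist. Sorl1, a sorting receptor that holds APP away from the amyloid-forming route, averaged 109 ± 24 CPM with NaKtide and 218 ± 39.5 CPM without it (-1.03, edgeR adjusted p = 0.00198). Sort1, the gene of the related receptor sortilin, averaged 245 ± 53.1 CPM with NaKtide and 447 ± 105 CPM without it (-0.89, adjusted p = 0.00326). The adaptors Apba1 and Apba2 had -0.54 and -0.66, and the reticulons Rtn3 and Rtn4, which bind BACE1, -0.58 and -0.52. With the length trend out, Sorl1 and Sort1 had -0.63 and -0.61 and stayed called, whereas Apba1 and Rtn4 did not (adjusted p = 0.119 and 0.143). Itm2b was then called lower (-0.36, edgeR adjusted p = 0.0226). None of the 6 genes of amyloid degradation, among them Ide and Mme, which encode insulin-degrading enzyme and neprilysin, was called, with -0.25 for Ide and -0.04 for Mme.

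Among 13 kinases, phosphatases and microtubule partners of tau 1 was higher and 5 were lower, where 17.4% of all genes were higher and 16.3% lower. In the quartile of longest exon length 32% of genes were lower. The same shares stand beside the lipid and endocytic lists that follow. Without the 4 libraries marked by Xist, 1 of the tau list was higher and 4 were lower. Map1b, a microtubule-associated protein of growing axons, averaged 319 ± 34.9 CPM with NaKtide and 681 ± 82.1 CPM without it (-1.11, edgeR adjusted p = 0.00128). Dyrk1a, a kinase that phosphorylates tau, averaged 43.1 ± 2.01 CPM with NaKtide and 68.5 ± 7.91 CPM without it (-0.68, adjusted p = 0.00193). Gsk3b, a principal tau kinase, had -0.88, and Cdk5, another, 0.41. With the length trend out, Map1b, Dyrk1a and Gsk3b were the 3 called lower, at -0.66, -0.38 and -0.51, and Cdk5 lost its call (0.27, adjusted p = 0.0966). Of 7 lipid carriers and receptors 2 were lower, the receptor Vldlr (41.9 ± 8.42 CPM with NaKtide and 60.3 ± 8.7 CPM without it, -0.54, adjusted p = 0.0172) and the lipid exporter Abca1, which loads lipid onto apolipoprotein E (8.89 ± 2.89 and 17 ± 3.78 CPM, -0.96, adjusted p = 0.0247). Both lost their call with the length trend out (-0.18 with 0.359 and -0.59 with 0.106), and Lrp1 and Abca7 were then called higher (0.57 and 0.96). Among these 7 genes, 1 was higher and 2 were lower without the 4 libraries marked by Xist. Of 5 endocytic risk genes Picalm, a clathrin assembly protein, was lower (-0.52, adjusted p = 0.0314). With the length trend out it had -0.10 (adjusted p = 0.648), and Sh3kbp1 was then called higher (0.53, edgeR adjusted p = 0.0403).

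Of the 7 microglial risk genes 5 were higher, 2 were not called and none was lower, where 17.4% of all genes were higher. Trem2, a lipid-sensing receptor of microglia, averaged 31.4 ± 5.46 CPM with NaKtide and 12.4 ± 1.7 CPM without it (log2 fold change 1.33, edgeR adjusted p = 0.00185). Its signalling partner Tyrobp averaged 35.2 ± 6.18 CPM with NaKtide and 15.9 ± 3.01 CPM without it (1.14, adjusted p = 0.00335). Spi1, the transcription factor PU.1, had 1.12, Abi3 0.86 and Grn, the progranulin gene, 0.47. With the length trend out 6 of the 7 were higher and none lower, and Tyrobp had 0.68. Leaving out the 4 libraries marked by Xist left 4 of the 7 higher. These changes stood beside the 2 of 6 microglial markers called higher, whose part in them was not tested.

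**Figure D4:**
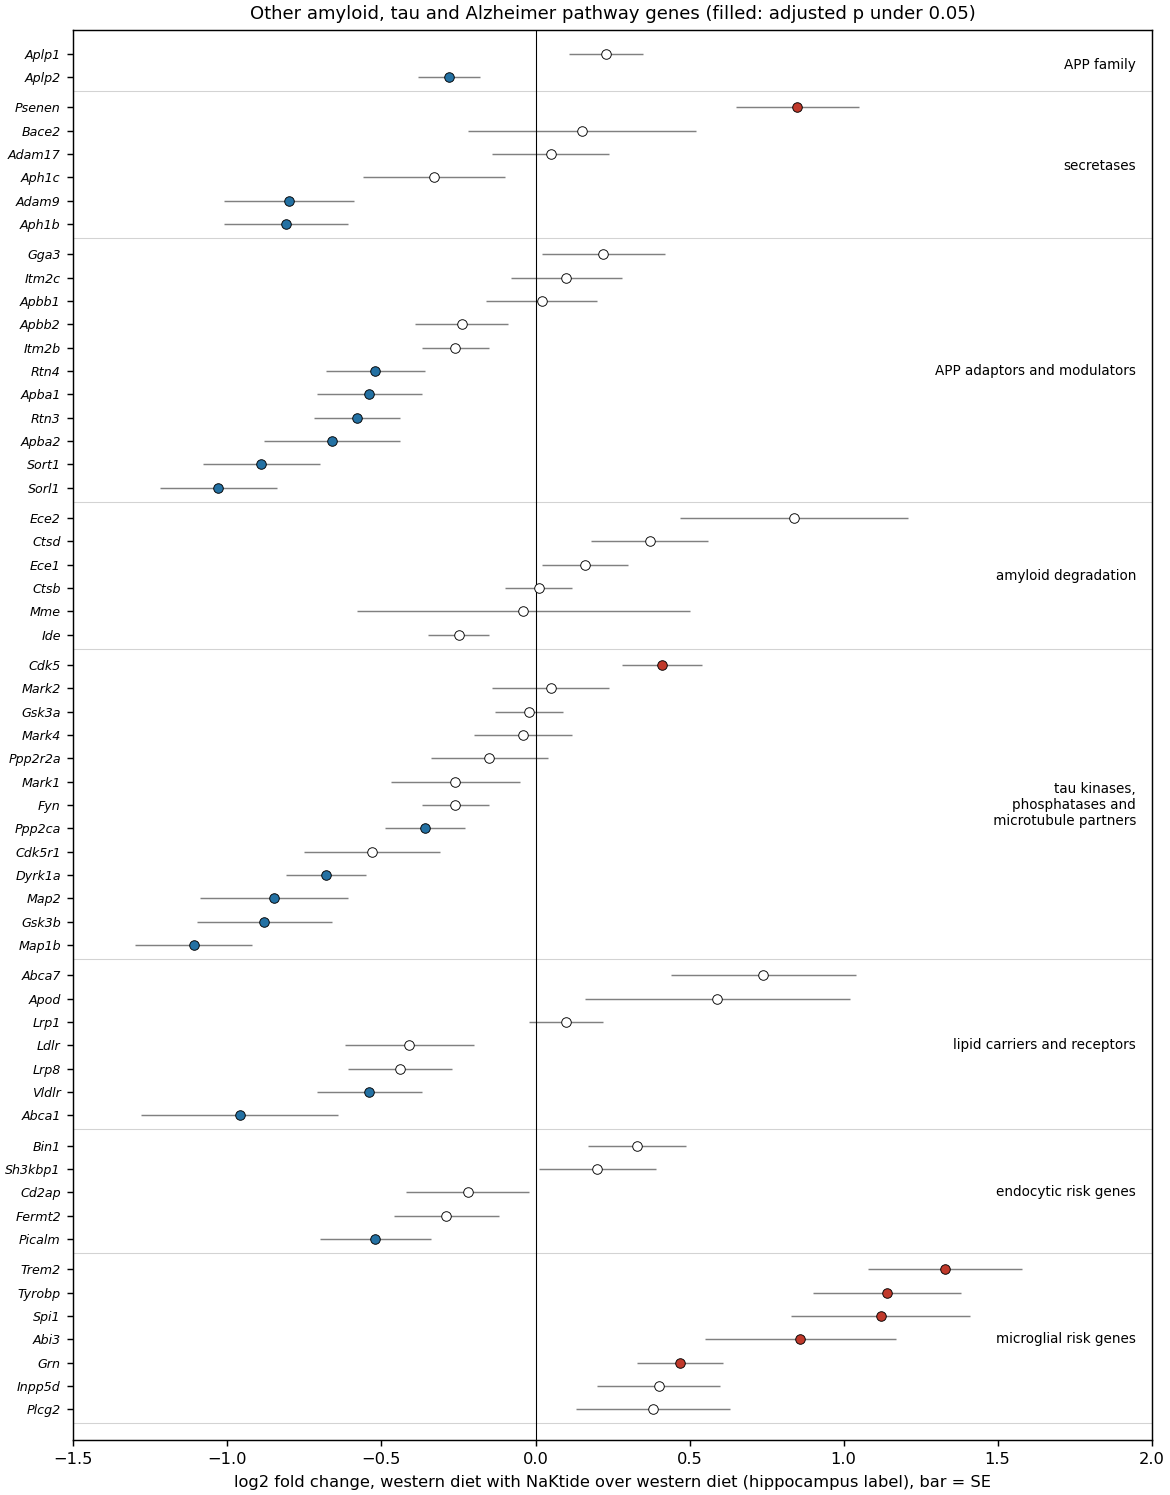
Log2 fold change of the 57 further pathway genes for western diet with NaKtide over western diet in libraries labelled hippocampus, with bars of 1 SE, grouped by role; filled points have an edgeR adjusted p under 0.05 (red higher, blue lower). Of the 57 genes, 7 are filled red, 5 of them microglial, and 17 are filled blue.

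None of the 9 genes was called in the other comparisons within the hippocampus label, nor was any gene (0% of 16442 in each, by edgeR). For western diet against control diet, 2 of the 9 had an unadjusted edgeR p under 0.05, beside 4046 of all 16442 genes. That count stands near the background and is no result about these genes by itself. DESeq2 called none of the 9, beside 5.1% of all genes. Bace1 averaged 75.1 ± 12.9 CPM in western diet and 54.6 ± 10.3 CPM in control diet (0.46, SE 0.16, adjusted p = 0.116), and Adam10 53 ± 13.3 and 37.7 ± 16.4 CPM (0.49, SE 0.23, adjusted p = 0.198). Control diet libraries of Adam10 spread from 16.8 to 62.8 CPM, over nearly the whole range of the label. Without the 4 libraries marked by Xist, 2 of which are controls, both were called (0.64 with 0.025 for Bace1, 0.88 with 0.0205 for Adam10), and Bace1 was called with 2 surrogate variables (0.49 with 0.0218). For NaKtide on control diet, 2 of the 9 again had an unadjusted edgeR p under 0.05, beside 2720 of all 16442 genes. DESeq2 called none of the 9 there (0.0365% of all genes). Adam10 had 24.1, 18.7, 20.3, 18.8 and 24.6 CPM with NaKtide, against a range of 16.8 to 62.8 with a median of 37.5 CPM in control diet. All 5 NaKtide values lay inside the range of the controls, and the log2 fold change of -0.81 (SE 0.24) had an adjusted p of 0.21. Bace1 averaged 39.9 ± 8.11 CPM with NaKtide and 54.6 ± 10.3 CPM without it (-0.44, SE 0.17, adjusted p = 0.221). This comparison shares no libraries with NaKtide on western diet, but both come from the same fit with a shared estimate of the spread. Western diet against control diet does share the hippocampus western libraries with NaKtide on western diet, so those 2 comparisons are not independent.

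For western diet against control diet, both with NaKtide, none of the 9 had an unadjusted edgeR p under 0.05, beside 1756 of 16442 genes. Changes ran from -0.12 for App to 0.10 for Adam10, with none called by DESeq2 (0.213% of all genes). The interaction of diet and NaKtide was not called for any of the 9 by edgeR or DESeq2 (1.17% of all genes in DESeq2). None of the 9 had an unadjusted edgeR p under 0.05 for the interaction, beside 2399 of 16442 genes. The interaction was -0.37 for App (SE 0.22), -0.39 for Adam10 (SE 0.34), -0.39 for Bace1 (SE 0.23) and 0.44 for Apoe (SE 0.29), with edgeR adjusted p between 0.446 and 0.633. The effect of NaKtide was thus not shown to differ between the diets within this label.

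Within the cerebellum label none of the 9 genes was called in any comparison by edgeR. Background shares were 0% of 16338 genes for NaKtide on western diet and for western diet with NaKtide, and 0.00612%, 1 gene, for western diet, for NaKtide on control diet and for the interaction. In DESeq2 none of the 9 was called in 4 of these comparisons, beside 0.00612% of genes for NaKtide on western diet and for western diet with NaKtide, 0.943% for western diet and 0.11% for the interaction. The closest to a call was Psen2 for NaKtide on control diet, the single member with an unadjusted edgeR p under 0.05 in these 5 comparisons. In that comparison 4816 of 16338 genes had an unadjusted p under 0.05, so 1 of 9 is no result about these genes by itself. Psen2 had 23.7, 14, 15, 15.8 and 17 CPM in control diet with NaKtide, against 29, 35.8, 29.7, 34 and 17.7 CPM in control diet. The groups overlapped through 1 library on each side. The means were 17.1 ± 3.84 CPM with NaKtide and 29.3 ± 7.03 CPM without it (n = 5 each), 1.71-fold lower with NaKtide (log2 fold change -0.78, SE 0.22, edgeR adjusted p = 0.0908). DESeq2 called Psen2 alone of the 9 (adjusted p = 0.0287), beside 8.88% of all genes. Its low control, cerebellum control 5, was also the control with the most App (1282 CPM) and Adam10 (45.6 CPM) in that group. Its summed oligodendrocyte markers were 4258 CPM, against 15633, 16085, 19153 and 12035 CPM in the other controls, and its neuronal markers 5801 CPM against 4548, 4056, 2954 and 3702 CPM. Between the groups of this comparison the oligodendrocyte sum ran from 1908 to 8403 CPM with NaKtide and from 4258 to 19153 CPM without it. None of the 6 markers was called by edgeR, and all 6 had an unadjusted p under 0.05, beside 4816 of 16338 genes. The part of tissue content in the values of Psen2 was not tested. Without this library Psen2 (-0.91, adjusted p = 0.0148), App (0.58, 0.0332) and Adam10 (0.98, 0.0386) were called. With 2 surrogate variables Psen2 had -0.21 (adjusted p = 1). On western diet the effect of NaKtide was 0.20 for App, 0.32 for Adam10, 0.03 for Bace1, -0.21 for Psen2 and 0.06 for Apoe, with an adjusted p of 1 for each. The libraries of western diet with NaKtide were widely spread there, with 48.6, 22.4, 16.9, 52.8 and 55.1 CPM of Adam10, against 25.3, 34.3, 31, 36.4 and 29.6 CPM in western diet.

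The region labels themselves did not separate the 9 genes. Across all groups, hippocampus over cerebellum, none of the 9 was called by edgeR or DESeq2, beside 0.0468% of 17088 genes called by edgeR and 0.509% by DESeq2. None of the 9 had an unadjusted edgeR p under 0.05, beside 2192 of the 17088 genes. The largest changes were -0.17 for Psen2 (SE 0.10, adjusted p = 0.489) and -0.14 for Bace1 (SE 0.08, adjusted p = 0.474). The effect of NaKtide, however, differed between the labels for 3 of the 9 on western diet, all with the more negative effect in hippocampus (8.84% of 17088 genes called, 4.44% in that direction and 4.39% in the other). The difference of log2 fold changes, hippocampus minus cerebellum, was -0.80 for App (SE 0.24), -1.51 for Adam10 (SE 0.42) and -0.85 for Bace1 (SE 0.23), with edgeR adjusted p of 0.0373, 0.0261 and 0.0248. DESeq2 called 3 of the 9 there too, beside 12.7% of genes. On control diet 4 of the 9 differed (20.6% of genes called, 11.7% positive and 8.88% negative). App had -0.67 (SE 0.24), Adam10 -1.44 (SE 0.43) and Bace1 -0.70 (SE 0.23), with adjusted p of 0.0461, 0.0182 and 0.0316, and Psen2 had 0.93 (SE 0.28, 0.0206). DESeq2 called 4 of the 9, beside 23.6% of genes. With the length trend taken out, App lost its call on western diet (-0.42, 0.114) and on control diet (-0.14, 0.614), and Bace1 on control diet (-0.38, 0.185), while Mapt was called on control diet (0.55, 0.0264). With 2 surrogate variables Bace1 alone was called on western diet (-0.64, 0.0315), and no member on control diet. Single libraries decided several of these calls. On western diet no member was called without cerebellum western NaKtide 4, and 1 was called without hippocampus western 3, cerebellum western 1, or cerebellum western NaKtide 1 or 5. On control diet 1 member was called without cerebellum control 2, cerebellum control NaKtide 5 or hippocampus control NaKtide 3. Another 6 libraries left 2 members called there when left out, namely hippocampus control 5 and 6, hippocampus control NaKtide 4, cerebellum control 3 and 4 and cerebellum control NaKtide 4. Without the 4 libraries marked by Xist none of the 4 was called on control diet. The effect of western diet without NaKtide did not differ between the labels for any of the 9 (0% of 17088 genes called by edgeR, none of the 9 and 0.0176% of genes by DESeq2). None of the 9 had an unadjusted edgeR p under 0.05 there, beside 907 of the 17088 genes.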

How the data were processed

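RNA was sequenced from 42 mouse brain libraries made with a stranded mRNA kit from 1 ug of total RNA, per the labels. Trimmomatic 0.38, HISAT2 2.1.0, DESeq2 1.20.0 and the build GRCm38 stand in the submitters' processing notes. The read counter was not given in the sources used here, nor was its annotation. Deposited tables give a raw count of each gene in each library and FPKM computed by the authors. FPKM was used to order genes by level and to obtain gene lengths. The exon length behind the quartiles and the length trend is the one implied by the raw counts and FPKM. The normalized counts were not used. The series' design text speaks of 60 liver and adipose samples instead, so groups were taken from the library labels.

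Counts were fitted with edgeR 4.0.16 in R 4.3.3 (TMM factors, filterByExpr, quasi-likelihood F test), with the 4 groups of a region label together or all 8 groups for comparisons of labels. A gene was called at an adjusted p under 0.05 (Benjamini-Hochberg, over all genes tested). The SE was taken as log2 fold change divided by the root of F. Levels are CPM with TMM factors over 42 libraries. The 9 genes, the pathway and marker lists and the alternatives were chosen with earlier results of these data known. In each pathway list at most 2 called genes of smallest p are given with means, and others are given by fold change. The 2 genes closest to each member were taken by Pearson correlation. Alternatives were DESeq2 1.42.0, its size factors in edgeR, the compared groups only, no low-count filter, 2 surrogate variables (sva 3.50.0), a replicate block, an offset for the trend with exon length (spline of 5 degrees of freedom), hippocampus control 5 and 6 summed, 4 libraries marked by Xist left out, and each library left out. A gene beyond the 57 of the pathway list is not reported here. Coordinates are from GENCODE on GRCm38.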

Additional observations from a re-analysis of the deposited data

Results flagged for a closer look

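Single libraries stood apart from the rest of their group for 7 of 72 combinations of gene and group, by the gap to the nearest other library relative to the range of the group. Chance gives about 1 in 20. App was high in cerebellum control 5, at 1282 CPM with the next library at 885 CPM. Psen2 was low in hippocampus control NaKtide 1, at 13.4 CPM with the next at 22.6 CPM, and Ncstn in cerebellum western 4, at 40.2 CPM with the next at 46.8 CPM. Aph1a was high in 3 groups, in hippocampus western 1 at 61.5 CPM (next 48), in hippocampus control NaKtide 4 at 68.8 CPM (next 57.5) and in cerebellum western NaKtide 2 at 65.9 CPM (next 50.4). Mapt was high in hippocampus western 3, at 500 CPM with the next at 427 CPM.

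The effect of NaKtide differed between the region labels by the test of the difference itself in edgeR, where 8.84% of all genes were called on western diet and 20.6% on control diet. On western diet the difference, hippocampus minus cerebellum, was -0.80 for App (adjusted p = 0.0373), -0.85 for Bace1 (0.0248) and -1.51 for Adam10 (0.0261). On control diet it was -0.67 for App (edgeR adjusted p = 0.0461), -0.70 for Bace1 (0.0316), 0.93 for Psen2 (0.0206) and -1.44 for Adam10 (0.0182). With 2 surrogate variables Bace1 alone was called on western diet and no member on control diet, and without the Xist-marked libraries no member was called on control diet. The defining marker Gabra6 was under 1 CPM in 15 of 20 libraries labelled cerebellum, and its part in these differences was not tested.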

How the results depend on the processing

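The count of members called moved by over 1.5 times in 4 comparisons. In libraries labelled hippocampus, western diet had 0 members called, 2 once the 4 Xist-marked libraries were left out and 1 with 2 surrogate variables. In libraries labelled cerebellum, NaKtide on control diet had 0 called, 1 in DESeq2, and 0 to 3 with each library left out, 3 without cerebellum control 5 and 1 without cerebellum western NaKtide 3. The difference between region labels of NaKtide on western diet had 3 called, 1 with 2 surrogate variables and 0 to 4 with each library left out. That of NaKtide on control diet had 4 called, 2 with no low-count filter, 2 with hippocampus control 5 and 6 summed, 0 with the Xist-marked libraries left out, 0 with 2 surrogate variables, and 1 to 5 with each library left out. The cause was not tested. NaKtide on western diet under the hippocampus label had 4 called, 5 in DESeq2 and 4 or 5 with each library left out. The replicate block left 4 called there, 3 and 3 in the differences of NaKtide on western and on control diet, and 0 in the other comparisons. Same-numbered libraries had a median correlation of deviations of -0.123 under the hippocampus label, -0.0453 under the cerebellum label and -0.0242 between labels, and 6 of 40 libraries correlated best with their own number, so numbers were not taken as pairs. No member's called change turned direction in any alternative run. With the compared groups only, interactions and comparisons of labels could not be fitted. Every member had at least 60 counts in every library.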
